A study of Mus musculus with 3 samples.

Results

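Bone morphogenetic proteins (BMPs) are secreted growth factors, and 10 genes of their pathway are described here: the ligands Bmp2, Bmp4 and Bmp7, the extracellular regulator Bmper, the receptors Bmpr1a and Bmpr2, and the target genes Id1, Id2, Id3 and Msx2. They were chosen by name from the 32285 genes in the files, to follow ligand, receptor and response through the cell states of mouse blastoids. None of them was used to define a state. All 10 were found under 1 identifier each and all 10 passed the filter on low counts, Bmper only through its counts in early PrE.

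Blastoids are aggregates of stem cells that take on the layout of a blastocyst. The source cells were E14 mouse embryonic stem cells, which the labels call Nr1h2-activated, kept with 1000 U/mL LIF and 10 µM T0901317, an activator of the liver X receptors. For blastoids, 5 cells were placed in each microwell. A seeding medium with 12.5 ng/mL rhFGF4, 0.5 µg/mL heparin, 3 µM CHIR99021 (an activator of Wnt signalling) and 2 µM Y-27632 was used for 24 h. The complete medium that followed kept FGF4, heparin and CHIR99021, and added 5 ng/mL BMP4 protein and 0.5 µM A83-01, an inhibitor of the activin and TGF-beta type I receptors. On day 5 the structures were picked by hand and digested for 30 min. All 3 libraries, titled Type I, Type II and Type III, share this line and these treatments, so BMP4 protein was in the medium of every cell measured and no library without it was compared. What sets the types apart is not in the labels, and each type has 1 library.

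A BMP dimer binds a complex of type I receptors such as BMPR1A and type II receptors such as BMPR2. Both are kinases, and the type I receptors phosphorylate SMAD1, SMAD5 and SMAD9. These enter the nucleus with SMAD4 and switch on genes that include the Id family, whose proteins bind and block helix-loop-helix transcription factors, and Msx homeobox genes. In the mouse embryo, epiblast and extraembryonic ectoderm make Bmp4, visceral endoderm makes Bmp2, and BMP signals are needed for mesoderm and for primordial germ cells.

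States were assigned to barcodes with at least 10000 UMIs (unique molecular identifiers, each standing for 1 captured RNA molecule) and at most 20% mitochondrial UMIs. This kept 1405 of 6813 barcodes in Type I, 1992 of 9265 in Type II and 272 of 2310 in Type III, with median UMI counts of 52224, 41491 and 71540. Sums of marker genes, in CPM (counts scaled to a common total per barcode), were applied in a fixed order. Barcodes with Ttr, Rbp4, Apoa1 and Apoa2 at 1000 CPM or more were called visceral endoderm-like (VE; 443, 563 and 19 barcodes in Types I, II and III). Of the rest, those with Gata6, Sox17 and Gata4 at 100 CPM or more were called early primitive endoderm-like (early PrE; 271, 376 and 45). Next came Krt8, Krt18 and Krt19 at 800 CPM or more for trophectoderm-like (TE; 208, 278 and 72), and Pou5f1 at 150 CPM or more for epiblast-like (351, 582 and 121), which left 132, 193 and 15 barcodes that met no rule. These classes are ranges of a score, not types: with all 4 thresholds doubled, TE held 166, 248 and 64 barcodes and 326, 524 and 45 met no rule.

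Marker genes outside the rules were compared with the names. The epiblast list (8 genes) summed to between 1720 and 2268 CPM in epiblast-like barcodes and between 237 and 460 CPM in TE. The visceral endoderm list (7 genes) summed to between 12102 and 14048 CPM in VE and between 3216 and 5001 CPM in early PrE. In TE, Gata2 was at 280, 241 and 329 CPM and Gata3 at 40.4, 39.1 and 41.1 CPM in Types I, II and III, whereas Elf5 was at 0.475, 1.01 and 0.482 CPM, Eomes at 2.47, 2.03 and 1.77 CPM and Cdx2 at 12.5, 8.26 and 4.82 CPM. The name TE therefore rests on keratins, Gata2 and Gata3, with the defining markers Elf5 and Eomes near 0. States also overlapped, since 51.7%, 48.4% and 33.3% of early PrE barcodes met the keratin rule too. Of VE barcodes, 85.8%, 87.7% and 94.7% met the keratin rule and 90.7%, 89.0% and 94.7% the early PrE rule. The fixed order of the rules placed these barcodes in VE. Doublets were not removed, and no deposited cell annotation was used. Of deposited barcode sequences, 155 were shared by Types I and II, 209 by I and III and 151 by II and III, but among kept barcodes 1, 0 and 0.

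States were compared within libraries. Counts were summed per library and state and fitted with edgeR's quasi-likelihood test over 13616 genes, with the library as a block and Benjamini-Hochberg adjustment at 0.05. The 3 libraries are different types standing in for replicates, so these p-values measure how alike a difference was in the 3 of them. All contrasts come from the same 12 sums. Against epiblast-like sums, 6 of the 10 genes were higher in TE and 0 lower, where 58.2% of all genes tested passed (28% higher, 30.2% lower). In early PrE 6 were higher and 4 lower (background 70.6%, with 36.1% higher and 34.5% lower), and in VE 5 were higher and 4 lower (75.7%, with 38% and 37.7%). Between the extraembryonic states, early PrE against TE gave 3 higher and 7 lower (59.4%, with 30.3% and 29.1%). VE against TE gave 3 higher and 5 lower (65.6%, with 33% and 32.6%), and VE against early PrE 3 higher and 1 lower (22.7%, with 11.8% and 10.9%). A change of at least 2-fold besides the adjusted p was met by 4 genes in TE over epiblast (background 21.2%), 7 in early PrE over epiblast (33.3%) and 6 in VE over epiblast (39.4%). It was met by 6 in early PrE over TE (24.6%), 5 in VE over TE (30.1%) and 3 in VE over early PrE (6.5%). The counts in the contrasts with early PrE include Bmper, which passed the filter on low counts only through early PrE. With backgrounds this high a passed test is common, so the sizes below carry more than the counts. Trimmed-mean (TMM) scaling and plain CPM differ here: the median log2 difference of all genes in TE over epiblast was 0.30 with plain totals and -0.02 with TMM. With plain totals it was 0.18 in early PrE over epiblast, 0.16 in VE over epiblast and -0.17 in both early PrE and VE over TE. The log2 differences below use TMM, while levels are plain CPM. Levels are not compared between genes, because 3' counts are not scaled by length.

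**Figure D1:**
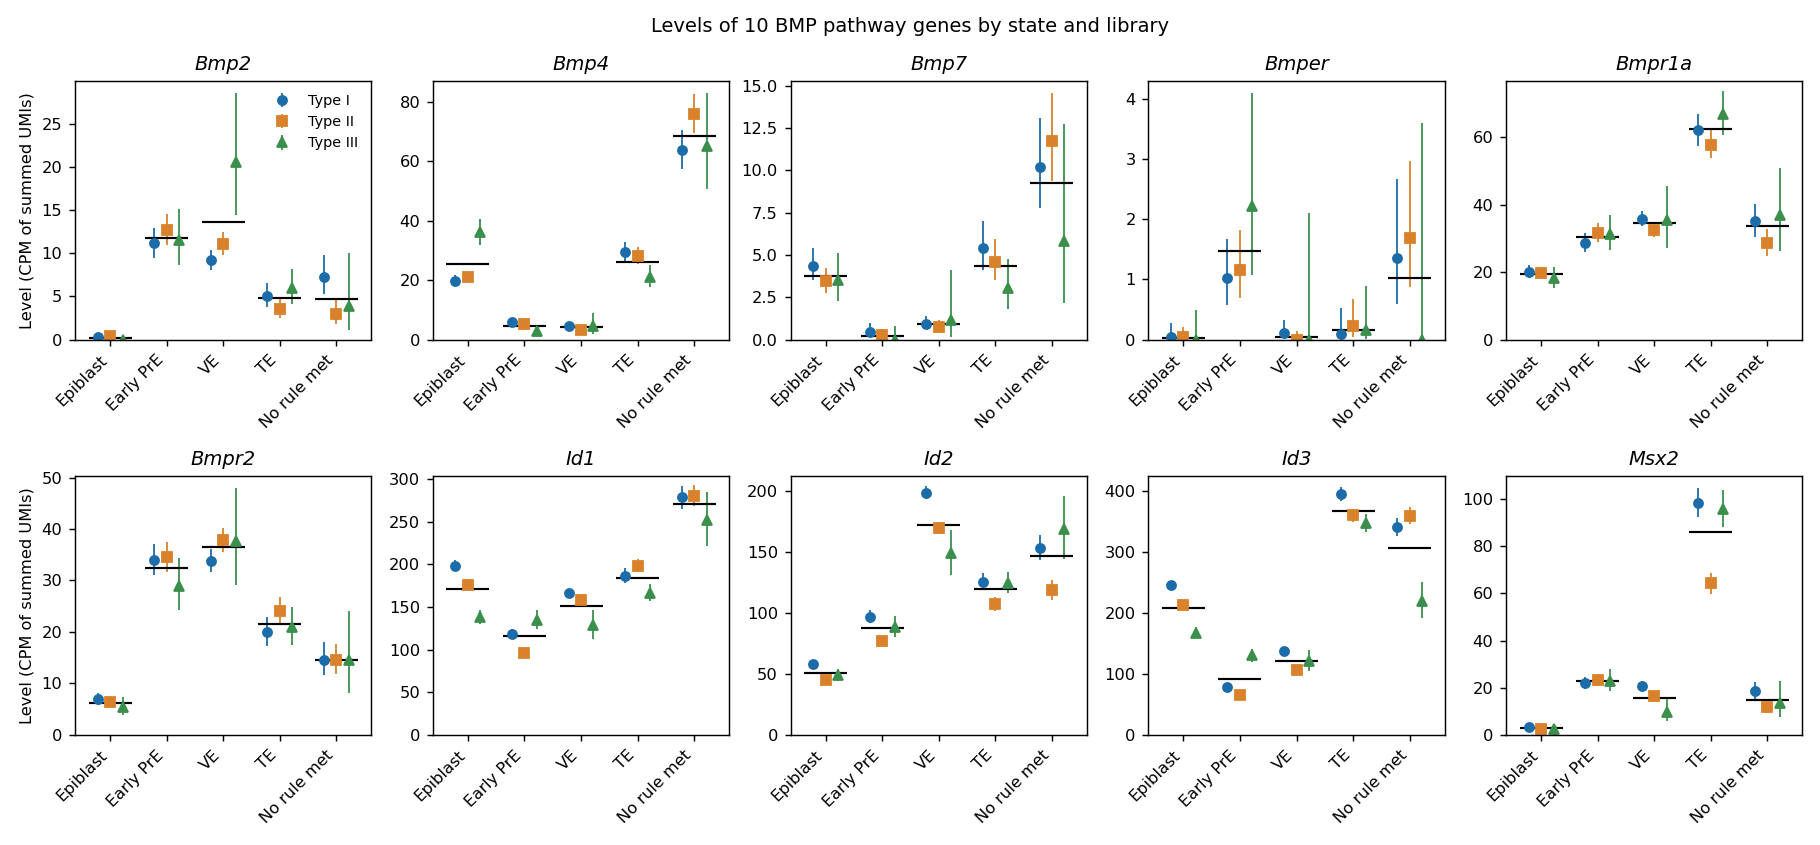
CPM (linear axis) of each of the 10 genes in epiblast-like, early PrE, VE and TE sums and in barcodes that met no rule, with 1 point per library, exact 95% Poisson bars and a line at the mean of 3 libraries. Msx2 and Bmpr1a stand highest in TE, Bmp2 is nearly absent from epiblast-like sums, and Bmp4, Bmp7 and Id1 are highest in barcodes that met no rule.

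Bmp2 encodes a ligand that visceral endoderm is known to make, and its RNA was in the endoderm-like states and nearly absent from the epiblast-like one. Its level was 9.19, 11.1 and 20.6 CPM in VE of Types I, II and III, and 11.1, 12.7 and 11.6 CPM in early PrE. In TE it was 5.04, 3.51 and 5.94 CPM, and in epiblast-like sums 0.254, 0.450 and 0 CPM, from 5, 12 and 0 UMIs. VE and early PrE overlapped, both lay above TE in every library, and TE lay above epiblast-like sums in every library. For the Type III epiblast-like sum, a count of 0 allows up to 0.404 CPM (3 counts). The log2 difference from epiblast-like sums was 5.03 ± 0.341 (SE, adjusted p = 5.036e-09) in early PrE, 4.98 ± 0.342 (adjusted p = 3.944e-09) in VE and 3.50 ± 0.411 (adjusted p = 3.702e-06) in TE. Early PrE was higher than TE by 1.54 (adjusted p = 5.192e-05) and VE by 1.48 (adjusted p = 6.567e-05). VE and early PrE gave a log2 difference of -0.06 (adjusted p = 0.8793), which was 0.13 without Type I and 0.13 without Type II.

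The share of barcodes with a Bmp2 UMI, after thinning every barcode to 10000 UMIs, was 7.90%, 8.70% and 10.5% in VE and 0.285%, 0.344% and 0% in epiblast-like barcodes, where 0 of 121 allows up to 2.48%. Median depths before thinning were 54589, 40808 and 92031 UMIs in VE and 57747, 46588.5 and 59991 in epiblast-like barcodes. TE shares, 5.77%, 2.52% and 2.78%, lay between the 2. In TE the tenth of barcodes with the most Bmp2 held 98.1%, 100% and 100% of its UMIs, a measure chosen after the data were seen. In Type III TE a single barcode held 23 of 37 UMIs.

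Bmp4 encodes the ligand that was also added to the medium as protein. Its RNA was lowest in both endoderm-like states: 4.61, 3.29 and 4.58 CPM in VE and 5.98, 5.39 and 2.89 CPM in early PrE of Types I, II and III. Epiblast-like sums held 19.7, 21.0 and 36.1 CPM, and TE 29.5, 28.2 and 21.2 CPM. These 2 states overlapped each other, and both lay above VE and early PrE in every library. Against epiblast-like sums, Bmp4 fell by 2.35 ± 0.252 on the log2 scale in early PrE (adjusted p = 8.001e-07) and by 2.73 ± 0.255 in VE (adjusted p = 1.349e-07). Against TE it fell by 2.18 in early PrE (adjusted p = 3.664e-06) and by 2.55 in VE (adjusted p = 5.314e-07).

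TE and epiblast-like sums did not pass the test for Bmp4: the log2 difference was -0.17 with a 95% interval from -0.570 to 0.221 (adjusted p = 0.4801), and it was 0.14 with plain totals, 0.18 without Type III and 0.20 with the state thresholds halved. With the thresholds doubled TE was lower and passed (-0.56, adjusted p = 0.01389). TE was above epiblast-like sums in Types I and II, and below in Type III. The UMIs were concentrated: the tenth of barcodes with the most Bmp4 held 71.6%, 74.3% and 86.4% of its UMIs in TE and 63.9%, 63.0% and 66.4% in epiblast-like barcodes. One Type III epiblast-like barcode held 45 of 268 UMIs. After thinning, 14.2%, 13.1% and 21.5% of epiblast-like barcodes and 11.5%, 16.2% and 8.33% of TE barcodes had a Bmp4 UMI, against 8.49%, 3.19% and 2.22% in early PrE.

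Bmp7, a ligand that can pair with BMP2 or BMP4 in dimers, followed the same division at low levels. It was at 5.42, 4.60 and 3.05 CPM in TE and 4.38, 3.45 and 3.50 CPM in epiblast-like sums of Types I, II and III. In VE it was at 0.945, 0.745 and 1.14 CPM, and in early PrE at 0.475, 0.256 and 0 CPM, the last allowing up to 0.668 CPM. TE and epiblast-like sums overlapped, and each lay above VE, which lay above early PrE. Bmp7 fell by 3.77 ± 0.353 in early PrE (adjusted p = 1.762e-07) and by 2.37 ± 0.275 in VE (adjusted p = 1.444e-06) against epiblast-like sums. TE over epiblast gave -0.07 with an interval from -0.516 to 0.366 (adjusted p = 0.8963), and 0.24 with plain totals. VE was higher than early PrE by 1.40 ± 0.447 (adjusted p = 0.03528), on 7, 4 and 0 UMIs in early PrE, and that call was lost in 10 of 17 other settings, among them without Type I (adjusted p = 0.1133), without Type II (adjusted p = 0.2899), with DESeq2 (adjusted p = 0.0567) and after thinning (adjusted p = 0.4019). With the thresholds halved the difference was -0.043.

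Bmper encodes a secreted protein that binds BMPs and can inhibit or promote their signalling. It was found in early PrE at 1.02, 1.15 and 2.23 CPM in Types I, II and III, which is 15, 18 and 10 UMIs. VE, TE and epiblast-like sums held at most 3 UMIs in any library, and the barcodes that met no rule 8, 12 and 0 UMIs. Early PrE therefore lay above the other 3 states in every library. The fitted log2 differences of early PrE were 4.65 ± 0.692 over epiblast and 3.05 over TE, and VE over early PrE gave -4.22 ± 0.661. With so few UMIs on the low side these sizes depend on the fit. Bmper passed the filter on low counts only through early PrE, the state where it is high, so its differences are not read as tests. With early PrE left aside both groups are at or near the floor of 3 counts, so no difference is given.

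Bmpr1a, the type I receptor for BMP2 and BMP4, was highest in TE, at 62.0, 57.8 and 67.0 CPM in Types I, II and III. VE held 35.9, 32.6 and 35.5 CPM, early PrE 28.6, 31.7 and 31.4 CPM and epiblast-like sums 20.2, 19.8 and 18.2 CPM. TE lay above all other states and epiblast-like sums below them in every library, and the VE and early PrE ranges came within 1 CPM of each other without overlapping. Over epiblast-like sums the log2 difference was 1.34 ± 0.0831 in TE (adjusted p = 5.364e-09), 0.66 ± 0.0865 in VE (adjusted p = 5.435e-06) and 0.48 ± 0.0873 in early PrE (adjusted p = 0.0001725). VE over early PrE did not pass (0.18, adjusted p = 0.1542). After thinning, 40.4%, 38.1% and 41.7% of TE barcodes and 19.7%, 16.8% and 19.0% of epiblast-like barcodes had a UMI.

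Bmpr2, the type II receptor, had another order. It was at 33.8, 37.8 and 37.8 CPM in VE and 34.0, 34.5 and 28.9 CPM in early PrE of Types I, II and III, which overlapped. TE held 19.95, 24.0 and 20.9 CPM and epiblast-like sums 6.92, 6.38 and 5.39 CPM. Both endoderm-like states lay above TE, and TE above epiblast-like sums, in every library. Against epiblast-like sums Bmpr2 rose by 2.33 ± 0.102 in VE (adjusted p = 2.753e-11), 2.22 ± 0.102 in early PrE (adjusted p = 7.7e-11) and 1.46 ± 0.108 in TE (adjusted p = 2.982e-08). Early PrE exceeded TE by 0.76 (adjusted p = 5.201e-06) and VE exceeded TE by 0.87 (adjusted p = 9.178e-07), although VE over TE was -0.27 when only barcodes that met a single rule were used, which left 7, 5 and 1 VE barcodes. Epiblast-like sums thus had the lowest level of each receptor, and the highest level of Bmpr1a was in TE and that of Bmpr2 in VE and early PrE, which overlapped.

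**Figure D2:**
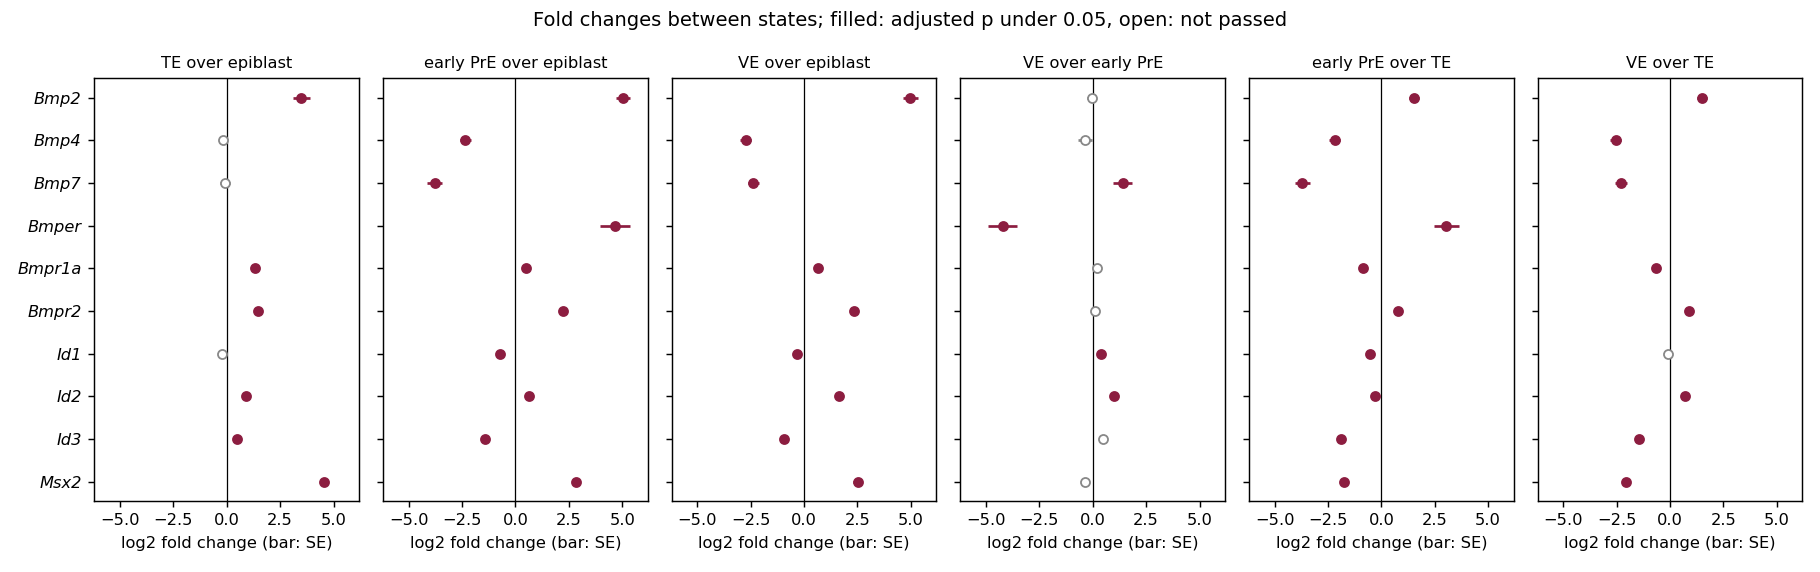
log2 differences of the 10 genes in 6 contrasts of states from edgeR, with bars for ± 1 SE, filled points where the adjusted p is under 0.05 and no point where both groups are at or near the floor. Bmp2, Bmpr2 and Msx2 lie right of 0 in all 3 contrasts with epiblast, and Bmp4 and Bmp7 lie left of 0 in early PrE and VE and at about 0 in TE. Bmper passed the filter on low counts only through early PrE, so its filled points are not read as tests.

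The target genes are shown with stretches before the RefSeq start site of 3 of them, because SMAD proteins are known to bind GC-rich elements such as GGCGCC (SMAD1 and SMAD5) and the short element GTCT, read AGAC on the other strand (SMAD4). The 250 bases before the RefSeq start site were searched on both strands in build GRCm38.p6, for 7 of the 10 genes: Bmp4, Bmpr1a, Bmpr2, Bmper, Id2, Id3 and Msx2. GGCGCC reads the same on both strands and was in the windows of Id2, Bmpr1a and Bmpr2. GTCT was in those of Bmp4, Bmper, Id2, Id3 and Msx2. Of 32851 promoters, 9.586% hold GGCGCC, 82.86% hold GTCT and 0.07001% hold GGCGCC followed by GTCT after 5 bases, which was in 0 of the 7. Matches are a description, not sites. The RefSeq start sites of Id2, Id3 and Msx2 used here lie inside the gene bounds of GENCODE M21 (chr12:25093799-25097140, chr4:136143497-136145755 and chr13:53466884-53473074), so these stretches lie downstream of the annotated gene start. The windows of Bmpr1a and Bmpr2 also lie inside the gene bounds (chr14:34410734-34503341 and chr1:59763400-59879014). Each 30-base stretch is written 5' to 3' on the gene's strand with the match in capitals.
Id2, chr12:25096306-25096335, minus strand, bases -231 to -226 from the start: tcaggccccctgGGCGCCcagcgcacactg
Id2, chr12:25096099-25096128, minus strand, bases -23 to -20, GTCT on the other strand: gagtgcacataaaAGACgccccgcccggct
Id3, chr4:136143643-136143672, plus strand, bases -166 to -163, GTCT on the other strand: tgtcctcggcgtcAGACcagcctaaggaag
Id3, chr4:136143741-136143770, plus strand, bases -68 to -65: tggacccttggcgGTCTgttttgaataagg
Msx2, chr13:53472827-53472856, minus strand, bases -63 to -60: ttggttgagccgaGTCTcccacttcccctc

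Msx2 encodes a homeobox repressor. Of the 4 targets it divided the states most. TE held 98.4, 64.3 and 95.9 CPM in Types I, II and III and early PrE 21.9, 23.2 and 22.9 CPM. VE held 20.9, 16.7 and 9.73 CPM and epiblast-like sums 3.51, 2.36 and 2.56 CPM. The 4 states did not overlap, in the order TE, early PrE, VE, epiblast. The log2 difference from epiblast-like sums was 4.58 ± 0.176 in TE (adjusted p = 7.825e-11), 2.85 ± 0.194 in early PrE (adjusted p = 5.288e-09) and 2.50 ± 0.195 in VE (adjusted p = 1.668e-08). Early PrE was lower than TE by 1.73 on the log2 scale (-1.73, adjusted p = 5.776e-08) and VE by more (-2.07, adjusted p = 7.439e-09), while VE over early PrE did not pass (-0.34, adjusted p = 0.1291).

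At 10000 UMIs each, 49.5%, 38.1% and 56.9% of TE barcodes had an Msx2 UMI, against 2.56%, 2.06% and 5.79% of epiblast-like barcodes. Median depths before thinning were 49219, 41851.5 and 81527 UMIs in TE. Free RNA was not estimated separately, and the epiblast-like share can include it. Of all Msx2 UMIs in kept barcodes, 49.1%, 46.9% and 79.6% lay in TE, which held 13.4%, 14.6% and 29.8% of all UMIs. Dissociation and immediate early genes (12 genes) also summed higher in TE, to between 639 and 776 CPM against 346 to 369 CPM in epiblast-like sums. Parietal endoderm markers (5 genes) were at 316 to 470 CPM in TE against 78.0 to 105 CPM. The part of either in the TE differences was not tested.

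Id3 was highest in TE as well, at 394, 360 and 347.5 CPM in Types I, II and III. Epiblast-like sums held 246, 212 and 167 CPM, VE 137, 106 and 121 CPM and early PrE 78.7, 65.5 and 130.3 CPM. TE lay above epiblast-like sums and these above VE in every library, whereas VE and early PrE overlapped. The fitted difference of TE over epiblast was 0.49 ± 0.170 (adjusted p = 0.02301), higher in 3 of 3 libraries. That call was lost without Type II (0.51, adjusted p = 0.0735) and with DESeq2 (0.47, adjusted p = 0.1228).

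Against epiblast-like sums, Id3 fell by 1.41 ± 0.182 in early PrE (adjusted p = 5.749e-06) and by 0.95 ± 0.179 in VE (adjusted p = 0.0001958). In early PrE the ratio was uneven, at -1.64 in Type I, -1.70 in Type II and -0.36 in Type III. In Type III early PrE the barcode with the most Id3 held 217 of the 585 Id3 UMIs. The barcode with the most Id1 held 123 of the 606 Id1 UMIs, and whether it was the same barcode was not looked at. The Type III early PrE sum also had 2-cell-like and blood or endothelium markers at 47.9 and 44.5 CPM, against at most 0.962 and 7.95 CPM in the early PrE sums of Types I and II. The part of these in the result was not tested. VE over early PrE did not pass with all libraries (0.46, adjusted p = 0.0907). It passed in 5 of 17 other settings, among them without Type III (0.75, adjusted p = 5.86e-06), and was -0.13 with the thresholds halved.

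Id1 differed least between states. It was at 187, 198 and 166 CPM in TE, 198, 176 and 138 CPM in epiblast-like sums, 166, 159 and 129 CPM in VE and 118, 95.7 and 135 CPM in early PrE of Types I, II and III. In order of their means, each state overlapped the next. Id1 fell by 0.73 ± 0.125 in early PrE (adjusted p = 9.955e-05) and by 0.32 ± 0.125 in VE (adjusted p = 0.03002) against epiblast-like sums. Early PrE was also lower than TE (-0.52, adjusted p = 0.002521) and lower than VE (VE over early PrE 0.41 ± 0.129, adjusted p = 0.03261), with ratios of 0.50, 0.73 and -0.07 in Types I, II and III. In Type III the ratio of early PrE to epiblast was -0.03, against -0.75 in Type I and -0.88 in Type II. Leaving out Type I or Type II ended the call of VE over epiblast (adjusted p = 0.1454 and 0.06824) and that of VE over early PrE (adjusted p = 0.2208 and 0.4484). In all, the VE over epiblast call was lost in 6 of 17 other settings, with plain totals (-0.16, adjusted p = 0.2559) and doubled thresholds (-0.19, adjusted p = 0.2167) among them. The VE over early PrE call was lost in 7, with doubled thresholds (0.38, adjusted p = 0.07695), halved thresholds (0.24, adjusted p = 0.1658) and DESeq2 (0.37, adjusted p = 0.05053) among them. Leaving out Type II also ended the call of early PrE over TE (-0.31). Without the Type III VE sum, which holds 19 barcodes, VE over epiblast was -0.26 (adjusted p = 0.1018, chosen after the data were seen).

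TE over epiblast for Id1 was -0.21 with an interval from -0.452 to 0.026 (adjusted p = 0.1488). It was 0.11 with plain totals, and it passed in 3 of 17 other settings, without Type III (-0.27, adjusted p = 0.007235), after thinning (-0.23, adjusted p = 0.02629) and without a filter on low counts (-0.22, adjusted p = 0.01601). The share of barcodes with an Id1 UMI was highest in VE (69.8%, 67.9% and 63.2% after thinning, against 57.2%, 55.0% and 44.4% in TE), which goes against the order of the CPM values, so no order is read from it.

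Id2 had its own order, with VE highest at 199, 170 and 149 CPM in Types I, II and III. TE held 125, 107 and 125 CPM, early PrE 96.8, 76.8 and 88.6 CPM and epiblast-like sums 57.9, 44.9 and 49.0 CPM. No 2 of the 4 states overlapped. Over epiblast-like sums Id2 rose by 1.63 ± 0.0789 in VE (adjusted p = 7.994e-11), 0.91 ± 0.0782 in TE (adjusted p = 1.362e-07) and 0.63 ± 0.0791 in early PrE (adjusted p = 4.702e-06). VE exceeded early PrE by 1.01 ± 0.0779 (adjusted p = 5.399e-07) and TE by 0.72 (adjusted p = 8.891e-07), the latter being -0.25 in the few VE barcodes that met a single rule. Early PrE was lower than TE (-0.29, adjusted p = 0.005117), a call lost without Type II (-0.26), with the thresholds doubled (-0.095, adjusted p = 0.5631) and without the library block (-0.28, adjusted p = 0.08348). After thinning, 79.0%, 69.1% and 73.7% of VE barcodes and 28.8%, 25.6% and 25.6% of epiblast-like barcodes had an Id2 UMI.

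**Figure D3:**
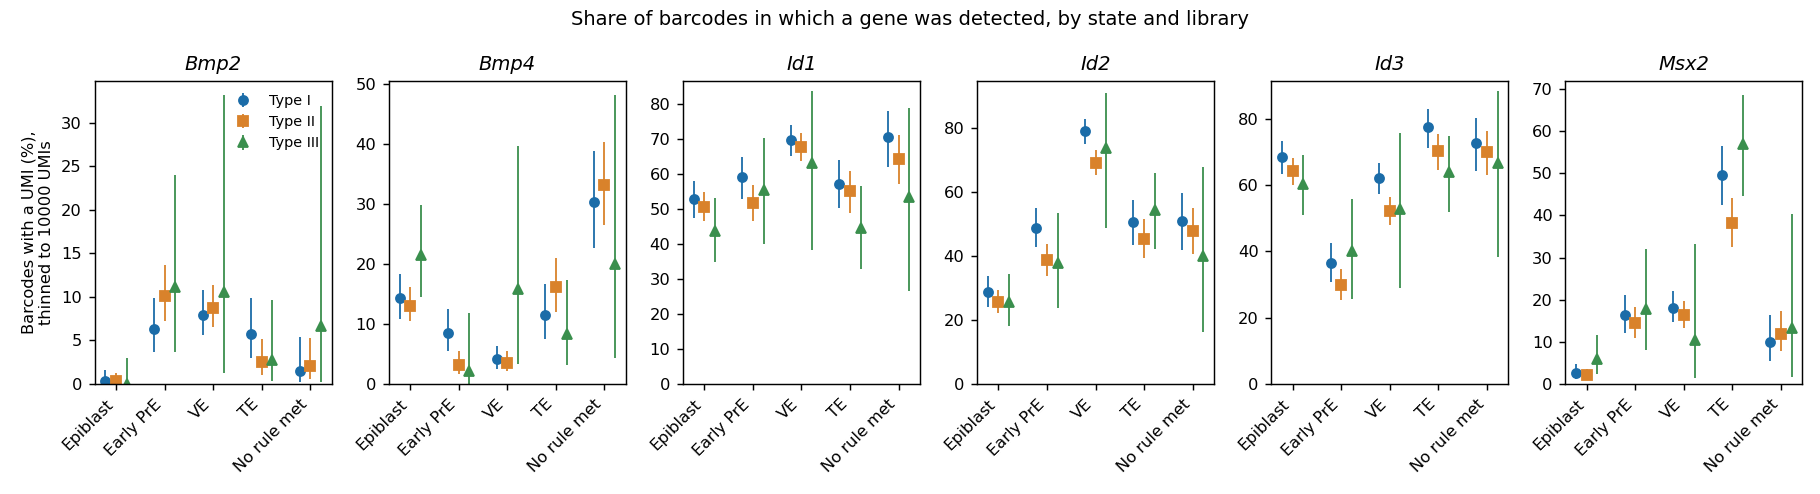
Percent of barcodes with a UMI of Bmp2, Bmp4, Id1, Id2, Id3 or Msx2 after thinning each barcode to 10000 UMIs, by state, with 1 point per library and exact 95% binomial bars. Msx2 is found in 38.1% to 56.9% of TE barcodes and Id2 in 69.1% to 79.0% of VE barcodes, and Bmp2 in under 1% of epiblast-like ones.

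Within the epiblast-like state, barcodes were divided into a streak subset (T, Mixl1 and Fgf8 at 100 CPM or more, genes of the primitive streak), a primed subset (Fgf5, Pou3f1 and Otx2 above Zfp42, Klf2 and Esrrb) and a naive remainder. These held 11, 30 and 4 streak, 52, 109 and 12 primed and 288, 443 and 105 naive barcodes in Types I, II and III. Sums of fewer than 20 barcodes were left out of the fit, so primed was compared in Types I and II, and streak rests on Type II alone, whose sum is assumed to vary like the others. Primed over naive called 3 of the 10 genes higher and 1 lower (background 15.3% of 13645 genes, with 7.31% higher and 7.94% lower). Streak over naive called 3 higher and 0 lower (8.95%, with 4.13% and 4.81%). At least 2-fold were 1 of the former (background 5.51%) and 2 of the latter (5.82%).

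In primed barcodes Bmp4 was at 5.79, 3.07 and 0.887 CPM (18, 16 and 1 UMIs), against 21.5, 26.2 and 36.5 CPM in naive ones. All primed sums lay below all naive sums. The fit, without Type III, gave a fall by 2.82 ± 0.347 (adjusted p = 2.712e-05). Bmpr2 was at 9.98, 9.97 and 13.3 CPM in primed and 6.400, 4.94 and 3.46 CPM in naive barcodes, again without overlap, and was higher by 0.74 (adjusted p = 0.02916). Bmpr1a (0.37, adjusted p = 0.04791) and Id2 (0.51, adjusted p = 0.0119) were higher as well. The Bmpr1a call was lost in 10 of 16 other settings, DESeq2 (adjusted p = 0.1022), thinning (adjusted p = 0.725) and leaving out any 1 library among them, that of Bmpr2 in 3 and that of Id2 in 2. Of these 4 calls only Bmp4 was kept without Type II, and only Bmp4 in the fit without the library block. Id1 gave 0.35 (adjusted p = 0.1256) and Id3 0.33 (adjusted p = 0.2247), and neither passed.

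In streak barcodes the 3 Id genes were higher. Id1 was at 475, 442 and 298 CPM in Types I, II and III, against 185, 143 and 145 CPM in naive barcodes. Id2 was at 122, 96.3 and 107 against 51.8, 36.8 and 47.7 CPM, and Id3 at 402, 391 and 325 against 227, 194 and 176 CPM. All streak sums lay above all naive sums for each of the 3 genes, also in the libraries that were not in the fit. The fit gave 1.30 ± 0.197 for Id1 (adjusted p = 0.0003802), 1.08 ± 0.212 for Id2 (adjusted p = 0.003204) and 0.93 ± 0.239 for Id3 (adjusted p = 0.02027). After thinning the Id2 call was lost (0.42, adjusted p = 0.7018). The Id3 call was lost without Type I, and without the library block only the Id1 call was left. Immediate early genes were also higher in streak barcodes, at 574 to 885 CPM against 329 to 336 CPM in naive ones, and their part in the Id differences was not tested.

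Bmp4 in streak barcodes was at 40.6, 10.98 and 200.1 CPM, from 31, 13 and 45 UMIs. All 45 in Type III came from 1 of its 4 streak barcodes. The fitted difference from naive did not pass (-1.44, adjusted p = 0.1532). Msx2 (1.19) and Bmpr2 (1.25, adjusted p = 0.0792) did not pass either.

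TE barcodes were divided by whether Anxa1, Anxa3 and Sfn exceeded Rhox6 and Rhox9 (annexin subset; 119, 185 and 53 barcodes) or not (Rhox subset; 89, 93 and 19, the last left out of the fit). Annexin over Rhox called 0 of the 10 genes higher and 2 lower (background 22.3%, with 11.6% higher and 10.7% lower), and 0 of them by 2-fold (7.27%). Msx2 was at 79.5, 49.7 and 76.3 CPM in the annexin subset and 129.5, 99.9 and 189 CPM in the Rhox subset, without overlap, and fell by 0.72 ± 0.144 (adjusted p = 0.001638). Bmpr1a was at 55.3, 49.9 and 62.0 against 73.1, 77.1 and 90.8 CPM, also without overlap, and fell by 0.38 ± 0.0996 (adjusted p = 0.01043). The Bmpr1a call was lost without Type I, without Type II and after thinning (-0.34, adjusted p = 0.2807), that of Msx2 after thinning (-0.47, adjusted p = 0.06301), and the count was 1 without Type II. Without Type III it was 5, with Bmp4 (0.67, adjusted p = 0.009945), Id1 (0.50, adjusted p = 0.009201) and Id3 (0.44, adjusted p = 0.0004525) higher.

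Bmp4, Id1 and Id3 did not pass. Bmp4 was at 34.7, 30.3 and 25.6 CPM in the annexin subset and 20.8, 23.0 and 0 CPM in the Rhox subset (0.55, adjusted p = 0.1271). Id1 was at 212, 207 and 174 against 144, 177 and 128 CPM (0.41, adjusted p = 0.05896). Id3 was at 434, 377 and 362 against 328, 317 and 278 CPM (0.33, adjusted p = 0.1839). For all 3 genes the annexin sum was above the Rhox sum of its library in 3 of 3 libraries. Of 16 other settings, Bmp4 passed in 4, Id1 in 7 and Id3 in 8, and with the thresholds doubled they gave 1.01 (adjusted p = 0.01776), 0.98 (adjusted p = 3.164e-05) and 0.65 (adjusted p = 0.000163).

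**Figure D4:**
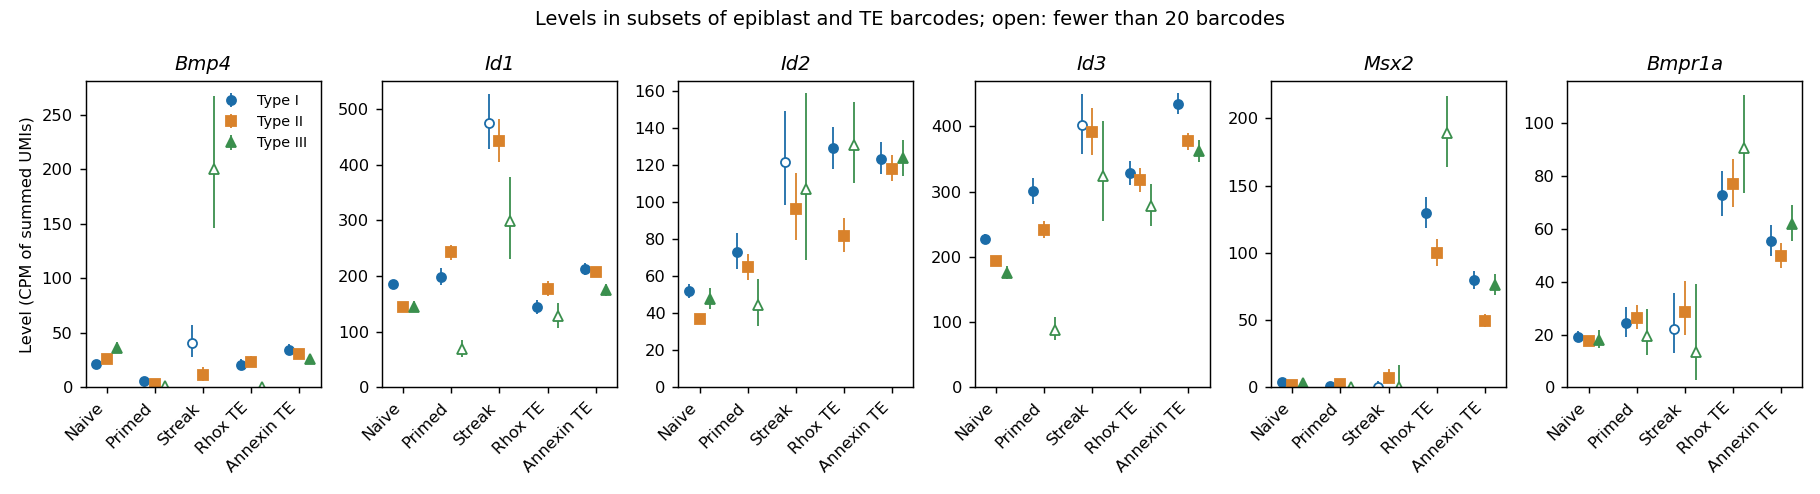
CPM of Bmp4, Id1, Id2, Id3, Msx2 and Bmpr1a in the naive, primed and streak subsets of epiblast-like barcodes and in the Rhox and annexin subsets of TE, 1 point per library with exact 95% Poisson bars, open where the sum holds fewer than 20 barcodes. Among the epiblast subsets Bmp4 is lowest in primed barcodes and the 3 Id genes are highest in streak barcodes, and Msx2 and Bmpr1a are higher in the Rhox than in the annexin subset.

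Across the barcodes of 1 state, Id1 and Id3 counts went together, as Spearman correlations on counts thinned to 10000 UMIs. In epiblast-like barcodes the correlation was 0.42, 0.42 and 0.46 (351, 582 and 121 barcodes) and in TE 0.32, 0.40 and 0.39 (208, 278 and 72). Both were detected in 42.2%, 39.2% and 33.9% of epiblast-like barcodes, against 36.0%, 32.5% and 26.4% if the 2 were independent. Id1 with Id2 gave 0.28, 0.32 and 0.44 in epiblast-like barcodes, and Id2 with Id3 gave 0.21, 0.21 and 0.39.

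Bmp4 with Id1, a ligand with a target, gave -0.08, -0.09 and 0.02 in epiblast-like barcodes and 0.23, 0.17 and -0.03 in TE, and Id3 with Msx2, both targets, gave -0.05, 0.07 and 0.21 in TE. These describe barcodes that share a library and a suspension and still differ in capture and in position within the state.

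Between libraries, within a state, a gene was called where it reached 50 CPM in either library and differed by at least 2-fold (10 CPM added), in 8 pairs with at least 50 barcodes on each side. Id1 and Id3 reached 50 CPM in 8 pairs, Id2 in 7 and Bmpr1a and Msx2 in 3, and none of these 5 genes was called. The other 5 genes did not reach that level and could not be called. The background by that rule was 0% of genes for Type II over Type I in VE and in epiblast-like sums, 0.0745% for the same pair in early PrE and 0.179% in TE. For Type III it was 0.714% over Type I and 0.513% over Type II in TE, and 0.214% and 0.258% in epiblast-like sums. With 1 library per type there is no test of this.

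Other genes of the pathway, 62 on lists of ligands, receptors, SMADs, binding proteins, proteases and targets, were read beside the 10. The fit tested 45 of them. In TE over epiblast 26 were higher and 5 lower, with a median log2 difference of 0.74 against -0.02 over all genes tested. In early PrE 22 were higher and 15 lower (median 0.38), and in VE 19 and 16 (median -0.07). Of all genes tested, 28% were higher and 30.2% lower in TE, 36.1% and 34.5% in early PrE, and 38% and 37.7% in VE. For VE the counts on the lists are near those shares, and no direction is read from them.

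Of other ligands, Gdf3, a ligand of the activin and nodal branch that can also bind BMPs, was at 76.1, 80.1 and 75.4 CPM in epiblast-like sums of Types I, II and III. In TE it was lower (-3.36 ± 0.259, adjusted p = 4.49e-08), and lower still in early PrE (-5.04) and VE (-5.12). Among extracellular binding proteins, Fst (follistatin, which binds activins and some BMPs) was at 37.6, 47.9 and 32.8 CPM in epiblast-like sums and 5.42, 5.77 and 2.89 CPM in TE, a log2 difference of -3.35 ± 0.139 (adjusted p = 1.31e-10). Crim1, a transmembrane protein that binds BMPs, was at 30.4, 27.1 and 40.3 CPM in early PrE and 3.92, 3.64 and 2.56 CPM in epiblast-like sums (2.94 ± 0.178, adjusted p = 1.42e-09). Furin, a protease that cleaves BMP precursors, was higher than in epiblast-like sums in TE (1.09), early PrE (1.58) and VE (1.59). Of 6 other receptors and co-receptors tested, 3 were higher and 3 lower in early PrE over epiblast (background 36.1% and 34.5%). In VE 2 were higher and 3 lower (38% and 37.7%), and in TE 2 and 1 (28% and 30.2%). Acvr2b was lower in early PrE (-1.32 ± 0.106, adjusted p = 3.23e-08) and VE (-1.54 ± 0.107, adjusted p = 4.06e-09).

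Inside the cell, Smad1 was higher in TE (0.85), early PrE (0.69) and VE (1.15) than in epiblast-like sums. Smad7, an inhibitory SMAD that is itself a target of the pathway and of TGF-beta signalling, was at 124, 127 and 149 CPM in TE and 55.3, 60.9 and 75.9 CPM in epiblast-like sums, without overlap (0.74 ± 0.113, adjusted p = 4.94e-05). Ski, a repressor of SMAD activity, was higher in TE by 1.07 ± 0.0816 (adjusted p = 4.2e-08). Of 11 other target genes tested, 9 were higher and 0 lower in TE over epiblast (median 1.14, background 28% higher and 30.2% lower). In VE over TE 0 of them were higher and 9 lower (median -4.74, background 33% and 32.6%). Members of that list, such as Gata2 (5.58) and Gata3 (3.43), also serve as TE markers, so this list is not independent of the state's name.

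In the subsets, Fst was higher in primed (1.87 ± 0.169, adjusted p = 9.38e-07) and streak barcodes (2.08 ± 0.260, adjusted p = 6.5e-05) than in naive ones. Msx1, the relative of Msx2, was at 41.9, 61.7 and 40.03 CPM in streak and 5.51, 4.05 and 0.823 CPM in naive barcodes (3.89 ± 0.433, adjusted p = 2.21e-05). Over the pathway lists, primed over naive gave 5 higher and 5 lower of 46 tested (background 7.31% higher and 7.94% lower). Streak over naive gave 6 and 3 (4.13% and 4.81%), and annexin over Rhox 8 and 6 (11.6% and 10.7%). Gata2 (-2.49) and Furin (-0.97) were lower in the annexin subset, as Msx2 was.

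The genes whose levels were most like those of a member over the 12 sums were found by Pearson's r on log2(CPM + 5). For Msx2 these were Rock1, Ugcg and Wac, each with r = 0.98, for Bmp2 Samd8 and Ppp2r5b, each with r = 0.99, and for Bmp4 Slc15a2, Cbln1 and Cep44, each with r = 0.98. Id2 was nearest to Pard3b, Suv39h1 and Greb1l (0.97 each), and Id3 to Nav2 (0.97), Polr1a (0.96) and Efnb2 (0.96). Id1 had the loosest matches, Psma4 (0.88), Id3 (0.85) and Rab34 (0.85). The 12 sums share 3 libraries and their depth, and 4 states give them only 4 levels to follow.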

How the data were processed

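Single cells of mouse blastoids were measured by droplet 3' RNA sequencing. The authors deposited UMI counts per gene and barcode for 3 libraries, from Cell Ranger (version 6.0.1 per the file headers) on mm10 per the submitters' processing notes. The calling of barcodes as cells is not described in the labels. Depth was 90126648, 106445641 and 25443474 UMIs in Types I, II and III. The 10 genes and the lists were chosen with earlier results of these data known.

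Barcodes were filtered and assigned to states as described above, without doublet removal. Summed counts were tested with edgeR 4.0.16 in R 4.3.3 (filterByExpr, TMM, library block, common dispersion 0.005577). Sums of a library come from 1 suspension, hence the block. Standard errors are the absolute log2 difference over the square root of F. Levels have exact 95% Poisson and shares exact 95% binomial intervals (scipy 1.17.1), covering counting error only. All 10 genes are named. From each pathway list, up to 3 genes with the largest differences among those past 0.05 and at 20 CPM or more in 1 state were eligible. The 3 most alike genes leave out mitochondrial, ribosomal, unnamed and state-defining genes. One gene that met this rule is not reported here. BLAST 2.17.0 matched the last 1000 transcript bases of Bmp4 and Msx2 to 388 and 353 other genes, over at most 89 and 114 bases, and the other 8 to 0. Genes on the opposite strand overlap Bmp4 and Bmpr1a, and the strand setting of the counting is not stated, so reads of these pairs may mix. The test was tried on simulated counts. Alternatives were other UMI, mitochondrial and state limits, thinning, scaling, no low-count filter, DESeq2 1.42.0, no library block and leaving out each library.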

Additional observations from a re-analysis of the deposited data

Results flagged for a closer look

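In 5 comparisons at least 1 library was higher and at least 1 lower by more than its own 95% counting interval, and the difference between libraries was not tested. Comparisons whose signs differed within counting error are not among the 5. How many of all genes meet the same rule was not computed, so the 5 are not read as particular to these genes. The intervals cover counting error only, and they are narrow for genes with many UMIs. For Bmp4 in TE over epiblast the log2 ratio of CPM was 0.58 in Type I, 0.43 in Type II and -0.77 in Type III, whose epiblast-like sum has 45 of 268 Bmp4 UMIs in 1 barcode. For Bmp4 in streak over naive barcodes it was 0.92, -1.25 and 2.45, with 11, 30 and 4 streak barcodes, of which 1 in Type III held all its UMIs. For Id1 the ratio was -0.09, 0.17 and 0.27 in TE over epiblast. With plain totals, as in these ratios, the median of all genes in TE over epiblast was 0.30, against -0.02 with TMM. Ratios per library were not computed with TMM. In primed over naive barcodes Id1 gave 0.11, 0.76 and -1.08 and Id3 gave 0.40, 0.32 and -0.99, where Type III has 12 primed barcodes.

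Barcodes that met no state rule are outside the comparisons, and 3 of the genes were above all 4 states there in every library. The share of all genes that do so was not computed, so the count is not read as particular to the 10 genes. Bmp4 was at 63.9, 76 and 65.3 CPM in Types I, II and III, Bmp7 at 10.2, 11.7 and 5.85 CPM and Id1 at 278, 280 and 252 CPM. These barcodes held 29.2%, 33.0% and 13.7% of Bmp4 UMIs and 7.52%, 8.06% and 4.90% of all UMIs. In Type III 45 of the 67 Bmp4 UMIs came from 1 of 15 barcodes. Streak mesoderm markers (6 genes) summed to between 148 and 321 CPM there, against 31.8 to 39.4 CPM in epiblast-like sums, and their part in these levels was not tested.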

How the results depend on the processing

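Of 84 differences of the 10 genes, 56 passed the test, those of Bmper with early PrE among them. Of these 56, 31 kept their call in all 17 settings that gave a value, and 4 changed sign in some setting. Where a call or sign changed, the cause was not tested. The share of all genes called is given for the main setting only. Changes in the counts below are therefore not read as particular to the 10 genes. Barcodes that met only 1 rule left 7, 5 and 1 in VE, and called genes went from 9 to 3 in VE over epiblast, 4 to 0 in VE over early PrE (edgeR, with 2 of 9 tested at an unadjusted p under 0.05), 8 to 4 in VE over TE, 4 to 2 in primed over naive and 2 to 5 in annexin over Rhox. There, VE over early PrE was -4.37 for Bmp7, -0.074 for Bmpr1a, -1.02 for Bmpr2 and -0.16 for Id1, and VE over TE was -0.27 for Bmpr2 and -0.25 for Id2. With thresholds halved, TE over epiblast was 0.20 for Bmp4 and 0.045 for Bmp7, VE over early PrE -0.043 for Bmp7, -0.026 for Bmpr1a and -0.13 for Id3, Bmp4 was 0.074 in streak over naive, and annexin over Rhox called 4, with -0.16 for Bmp4 and -0.17 for Bmpr2. With thresholds doubled, VE over early PrE was 0.13 for Bmp2 and -0.034 for Bmpr2, VE over TE 0.033 for Id1, primed over naive 0.20 for Bmp2, and annexin over Rhox called 7, with -0.063 for Bmpr2. A minimum of 5000 UMIs gave 5 annexin calls and -0.053 for Bmpr2. Plain totals gave TE over epiblast 0.14 for Bmp4, 0.24 for Bmp7 and 0.11 for Id1. Thinned sums gave -0.49 for Bmp7 in primed and -3.04 for Bmp2 in streak over naive. DESeq2 called 2 in VE over early PrE, with 0.057 for Bmp2. Without a filter on low counts streak over naive called 5 and annexin over Rhox 7. Without the library block, VE over early PrE called 2, primed over naive 1 and streak over naive 1, and the counts of the other 6 comparisons stayed within 1.5 times. Thinning and the use of barcodes that met only 1 rule kept the state with the highest level for 7 of 10 genes.

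Leaving out 1 library at a time, called genes ranged from 1 to 6 in VE over early PrE (2 without Type I, 1 without Type II, 6 without Type III), 1 to 3 in primed over naive and 1 to 5 in annexin over Rhox. TE over epiblast ranged from -0.46 to 0.18 for Bmp4 and -0.23 to 0.045 for Bmp7, and VE over early PrE from -0.23 to 0.13 for Bmp2. Primed over naive ranged from -0.83 to 1.03 for Bmp2, -0.28 to 0.23 for Bmp7 and -1.72 to 0.21 for Msx2, and annexin over Rhox from -0.16 to 0.48 for Bmpr2. Streak over naive could not be fitted without Type II, and the Id1 with Id3 correlation was not run at 5000 UMIs. Few UMIs limit what can be said of Bmper, of Bmp7 in early PrE and of Bmp2 in epiblast-like sums, and few barcodes limit the Type III VE sum (19) and the smaller subsets.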

Other observations

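Inside the barcodes that met no rule, a division chosen after the data were seen gives Bmp4 by streak genes. Where T, Mixl1 and Fgf8 summed to at least 100 CPM, Bmp4 was at 97.8 CPM in Type I (29 barcodes) and 160 CPM in Type II (59 barcodes), and below that limit at 55.2 and 33.6 CPM. Id1 was at 432 and 455 CPM above the limit and 239 and 192 CPM below it. In Type III only 2 barcodes were above the limit, without Bmp4. Divided by Hand1 at 50 CPM or more instead, the same barcodes had Bmp4 at 102, 167 and 438 CPM (24, 26 and 1 barcodes in Types I, II and III) against 56.0, 61.5 and 23.8 CPM in the others. When TE barcodes were divided by T, Mixl1 and Fgf8 instead, those at 100 CPM or more (8 and 20 in Types I and II) had Bmp4 at 156 and 134 CPM. The TE barcodes below 100 CPM had 24.7 and 21.0 CPM. Msx2 was at 18.2 and 8.53 CPM at or above that streak limit, against 101 and 68.1 CPM below it.

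TE barcodes with Hand1, a transcription factor of trophoblast giant cells and mesoderm, at 50 CPM or more had Msx2 at 158, 121 and 198 CPM against 87.3, 57.4 and 75.4 CPM in the others. Id3 was at 452, 576 and 692 against 383, 334 and 278 CPM. Both were higher in 3 of 3 libraries. Id1, Id2, Bmp4 and Bmp7 did not keep 1 direction over the libraries, with Id1 at 285, 169 and 208 against 168, 202 and 158 CPM. Hand1 is itself on the list of other target genes. This division was also chosen after the data were seen and was not tested.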
